A study of Homo sapiens with 6 samples.

Results

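The 10 myeloid lineage transcription factors considered here are the C/EBP genes CEBPA, CEBPB, CEBPD and CEBPE, the gene of PU.1 (SPI1), GFI1, RUNX1, IRF8, KLF4 and MYB. They were chosen by gene symbol, and all 10 were found among the 61806 genes of the count table and had enough counts to be tested. The assay was RNA sequencing of poly(A)-selected RNA from NB4, an established human cell line from a patient's acute promyelocytic leukaemia, in which granulocyte precursors stop maturing. One group of 3 libraries came from NB4 cells given CD69 by a lentivirus, CD69 being an early activation antigen of the leukocyte surface, and the other group of 3 from control NB4 cells, which the labels call wild-type and the series' design text calls matched vector controls. No drug was given to either group, and cells were taken in logarithmic growth. All libraries carry the same batch label. The design text calls the libraries biological replicates, but nothing in the sources used here ties them to separate transductions, so each group may be 1 transduced population and the p-values then cover only differences among libraries, which may be technical.

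These factors divide the work of building granulocytes and monocytes. PU.1 is an ETS factor needed in both lineages, C/EBP alpha starts granulocyte commitment, C/EBP epsilon drives late granule genes, and C/EBP beta and delta serve emergency and inflammatory responses. GFI1 is a repressor that favours granulocytes, whereas IRF8 and KLF4 favour monocytes, and GFI1 and IRF8 oppose each other. RUNX1 and MYB act earlier, in stem and progenitor cells and at the promoters of primary granule genes. In acute promyelocytic leukaemia the fusion protein PML-RARA interferes with PU.1 and C/EBP activity. The counts do not measure protein or DNA binding.

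Total counts lay between 51543550 and 57463020 per library. CD69 was at 98.3, 99.1 and 95.7 CPM (normalised read count, scaled to the library's total) in the overexpressing libraries, against 80.4, 81.9 and 70.6 CPM in the control libraries (log2 fold change 0.33, SE 0.07; edgeR quasi-likelihood test, adjusted p = 0.0153, and 0.0618 without overexpressing replicate 2). Of 10 promyelocyte markers, CST7, PRTN3, ELANE, SRGN and AZU1 rose and none fell, and all 10 summed to 4818 to 5539 CPM in overexpressing libraries and 2288 to 2585 CPM in control libraries. One defining marker, MPO, was nearly absent, at 0.518 to 1.03 CPM in overexpressing and 0.928 to 1.45 CPM in control libraries. In overexpressing replicates 1, 2 and 3 the 14 B cell markers summed to 42.0, 133 and 131 CPM, against 55.5 to 62.3 CPM in control libraries, with VPREB1 at 0 in all libraries. The 12 monocyte markers summed to 52.8 to 74.9 CPM in overexpressing and 49.7 to 50.4 CPM in control libraries, with CD163, C1QA, C1QB, MRC1 and S100A12 under 1 CPM throughout. Of the 7 monocyte markers tested, 3 rose and 1 fell, with 1 higher without control replicate 1 or 2 or overexpressing replicate 2 and 3 lower without overexpressing replicate 1. The 13 T and NK markers summed to 393 to 399.9 CPM in overexpressing and 436 to 479 CPM in control libraries, of which CD4, which myeloid cells also express, made up 73.0% and CD3E and CD3G were at 0. Of the 5 tested, NKG7 rose and CD2, CD4 and NCAM1 fell. The 17 erythroid, megakaryocyte and mast cell markers summed to 563 to 649 CPM in overexpressing and 862 to 1109 CPM in control libraries, of which TPSAB1 (mast cell tryptase, a gene with near-identical copies) made up 98.7%, while GATA1, GP9 and CLC were among those at 0. Of the 8 tested, TPSAB1 fell and none rose, with 2 lower without overexpressing replicate 2 or 3. Over all genes tested, 14.2% rose and 9.94% fell by the same test, and no marker list was tested as a set. The part of these marker differences in the results was not tested. Fewer cells of a type and less RNA per cell cannot be told apart in bulk RNA.

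Replicate 3 of each group differed from replicates 1 and 2 with transcript length. Among 10248 coding genes of at least 5 mean CPM, the median log2 ratio of overexpressing replicate 3 to replicates 1 and 2 was 0.12 in the 3416 genes of shortest exon length and -0.11 in the 3416 of longest. In the controls it was 0.17 and -0.15. Of the 5 factors with the shortest exons, CEBPA, CEBPE and SPI1 were higher in replicate 3, by log2 values of 0.19, 0.41 and 0.23 in the overexpressing cells and 0.26, 0.35 and 0.29 in the control cells. The other two did not share this in both groups: CEBPB had offsets of 0.0042 in overexpressing and 0.24 in control cells, and CEBPD of -0.34 in overexpressing and -0.16 in control cells. MYB and RUNX1 were lower in replicate 3 of the control cells by the log2 values of -0.34 and -0.22, while IRF8 and GFI1 were within 0.1 of replicates 1 and 2 in both groups. The part of this offset in the results was not tested, and the values without these libraries are given where they change a call.

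Of the 10 factors, IRF8 rose in the CD69-overexpressing cells, RUNX1 and SPI1 fell, and 7 did not pass the test (edgeR quasi-likelihood test over 19485 genes, called at a Benjamini-Hochberg adjusted p under 0.05). Over all genes tested, 14.2% were called higher and 9.94% lower, together 24.1%, so 3 called of 10 is near the background. The median log2 fold change of the 10 factors was -0.01, against 0.01 over all genes. The groups did not overlap for IRF8, RUNX1, SPI1 and MYB, with 2 of them higher and 2 lower. Over all genes tested, 42.3% had groups that did not overlap, 23.0% higher and 19.3% lower. IRF8 and RUNX1 were the 2 factors whose calls held under all 14 alternative analyses.

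**Figure D1:**
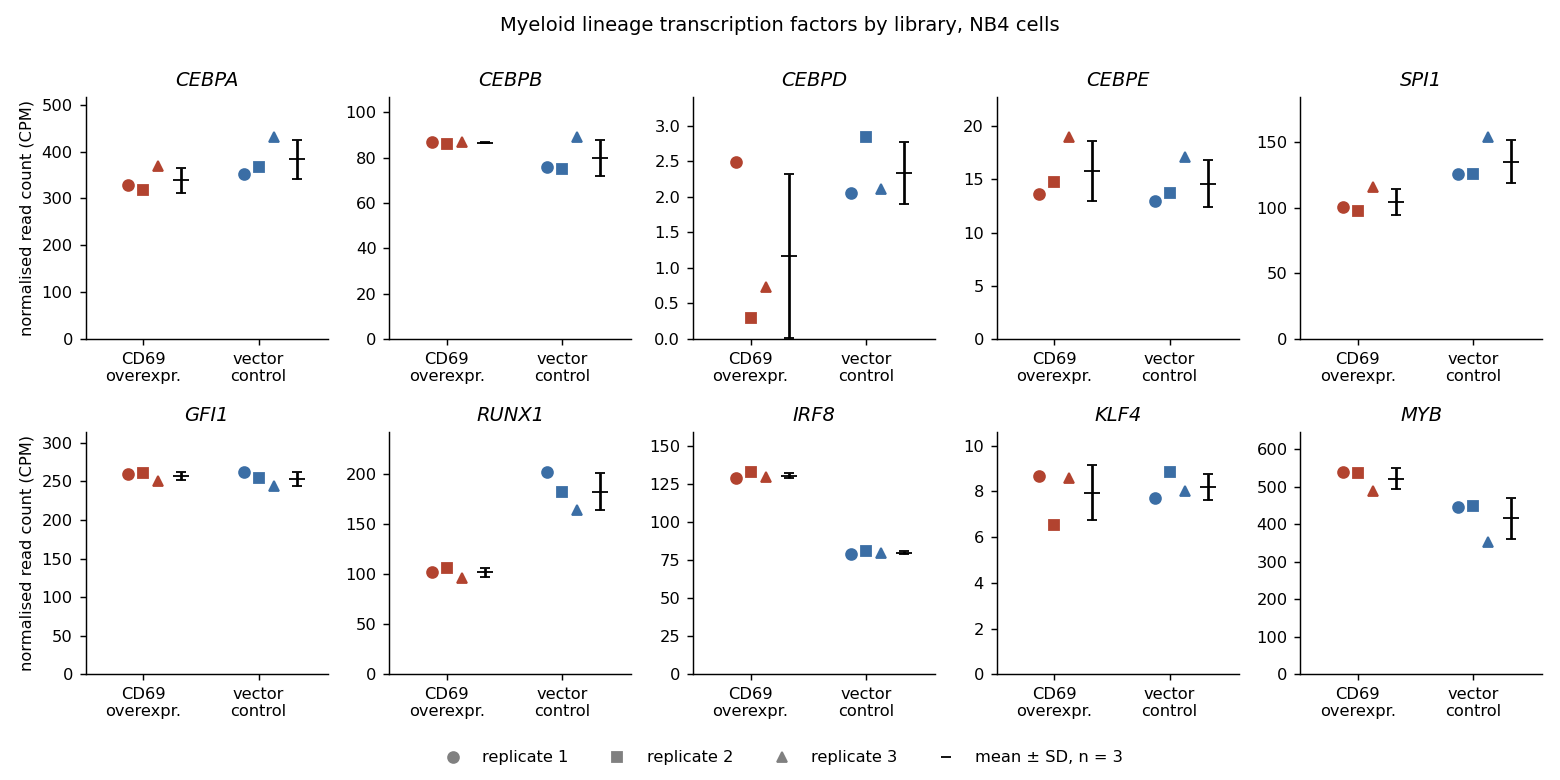
Normalised read count (CPM, linear axis from 0) of each factor in the 3 CD69-overexpressing libraries (left, red) and the 3 vector control libraries (right, blue), with the mean and SD beside the points. The groups are apart for IRF8, RUNX1, SPI1 and MYB and overlap for the other 6 factors.

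IRF8 (ENSG00000140968; GRCh38 chromosome 16, 85898803 to 85922609, plus strand) encodes an interferon regulatory factor that, with PU.1, directs progenitors to monocytes and dendritic cells and is also used by B cells. It had 129, 132 and 129 CPM in overexpressing replicates 1, 2 and 3, against 78.6, 80.7 and 79.7 CPM in control replicates 1, 2 and 3. Each group was tight, and every overexpressing library stood above every control. The means were 130.3 ± 1.84 CPM in overexpressing cells and 79.7 ± 1.04 CPM in control cells (SD, n = 3 each), a log2 fold change of 0.71 (SE 0.06, 95% interval 0.58 to 0.84; edgeR quasi-likelihood test, adjusted p = 0.000143, range over the alternatives 1.45e-30 to 0.00219). Among 25 expressed coding genes that start within 2.5 Mb, the median log2 fold change was -0.04, with 5 higher and 3 lower.

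RUNX1 (ENSG00000159216; chromosome 21, 34787801 to 36004667, minus strand) encodes the DNA-binding subunit of core binding factor, which is needed to form blood stem cells and acts at many myeloid promoters. It had 102, 106 and 96.5 CPM in overexpressing replicates 1, 2 and 3, against 201, 181 and 164 CPM in control replicates 1, 2 and 3. The control libraries varied more than the overexpressing ones, and the lowest control was still above the highest overexpressing library. The means were 101.5 ± 4.87 CPM in overexpressing and 182 ± 18.7 CPM in control cells (SD, n = 3 each; log2 fold change -0.84, SE 0.09, 95% interval -1.05 to -0.64; edgeR quasi-likelihood test, adjusted p = 0.000508, range over the alternatives 3.05e-18 to 0.00352). Of 30 expressed coding neighbours within 2.5 Mb, 5 were higher and none was lower, with a median of 0.11. Transcripts from the distal and proximal RUNX1 promoters are summed in these counts.

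RefSeq promoter windows (GRCh38.p14, 250 bases before to 50 after a start) were found for 8 of the 10 factors, not for SPI1 and CEBPD. The windows of the 2 factors with lasting calls are shown because their levels differed most firmly. For IRF8 it is 1 of 2 windows and belongs to a start inside the gene (chr16:85902580-85902879, plus strand), and for RUNX1 to a start inside the annotated gene (chr21:34888650-34888949, minus strand). Capitals mark matches, on either strand, to the letters searched for each factor: TTGCNNAA for C/EBP, GAGGAA for PU.1, TGTGGT for RUNX, AACNG for MYB, a pair of GAAA blocks with NN between for IRF, AATCAC for GFI1 and GGGTGNGG for KLF.
IRF8: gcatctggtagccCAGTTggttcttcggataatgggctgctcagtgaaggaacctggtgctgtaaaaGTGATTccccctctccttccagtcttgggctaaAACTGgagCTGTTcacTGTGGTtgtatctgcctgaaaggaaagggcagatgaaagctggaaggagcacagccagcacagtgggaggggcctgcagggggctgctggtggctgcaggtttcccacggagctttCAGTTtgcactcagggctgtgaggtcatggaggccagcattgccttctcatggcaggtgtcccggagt
RUNX1: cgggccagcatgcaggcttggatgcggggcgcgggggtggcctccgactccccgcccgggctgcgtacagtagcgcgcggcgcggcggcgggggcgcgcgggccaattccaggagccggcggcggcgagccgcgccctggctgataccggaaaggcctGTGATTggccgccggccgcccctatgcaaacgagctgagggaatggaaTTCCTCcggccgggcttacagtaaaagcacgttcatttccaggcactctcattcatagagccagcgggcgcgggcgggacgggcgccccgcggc
The IRF8 window held 4 matches for MYB, 1 for RUNX and 1 for GFI1, and the RUNX1 window 1 for PU.1 and 1 for GFI1. None of these overlapped another. Over all 35116 windows of this length, 77.2% held a MYB match, 13.1% a RUNX match, 10.2% a GFI1 match and 27.9% a PU.1 match. A match describes letters and is not a binding site.

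SPI1 (ENSG00000066336; chromosome 11, 47354860 to 47378576, minus strand) had 100.5, 97.3 and 115.9 CPM in overexpressing replicates 1, 2 and 3, against 125.8, 125.6 and 154 CPM in control replicates 1, 2 and 3. Every control was above every overexpressing library, and replicate 3 was the highest in each group. The log2 fold change was -0.37 (SE 0.11, 95% interval -0.62 to -0.12; edgeR quasi-likelihood test, adjusted p = 0.0398). The call was lost without control replicate 1, 2 or 3 (adjusted p = 0.0667, 0.0635 and 0.0652), without overexpressing replicate 1 or 2 (0.111 and 0.151) and with no filter on low counts (0.0845), and ranged from 0.00156 to 0.151 over the alternatives. The SPI1 call held in 8 of the 14 alternatives, among them DESeq2 (adjusted p = 0.00610). With both libraries numbered 3 left out, the SPI1 log2 fold change was -0.34 (edgeR quasi-likelihood adjusted p = 0.00156). Without control replicate 3 it was -0.26.

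MYB (ENSG00000118513; chromosome 6, 135181315 to 135219173, plus strand), which keeps progenitors cycling and is switched off as granulocytes mature, had 539, 537 and 489 CPM in overexpressing replicates 1, 2 and 3, against 446, 449 and 353 CPM in control replicates 1, 2 and 3. All overexpressing libraries were above all controls, but the difference missed the threshold (log2 fold change 0.33, SE 0.10, 95% interval 0.09 to 0.56; edgeR quasi-likelihood test, adjusted p = 0.0529). It passed in 6 of the 14 alternatives, among them DESeq2 (adjusted p = 0.0126), limma-voom (0.0438), counts divided by 4 (0.0385), the omission of control replicate 3 (0.0350, with a log2 fold change of 0.22) and that of both libraries numbered 3 (0.000830). Its adjusted p ranged from 0.000830 to 0.150 over the alternatives. Of the 11 expressed coding genes that start within 2.5 Mb of MYB, 9 were lower and none higher, with a median log2 fold change of -0.35. An antisense gene, MYB-AS1, covers 1.88% of its exon bases and was at no more than 1.95 CPM.

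Of the C/EBP genes, none was called by the edgeR test over all 6 libraries without a block. CEBPA, whose product starts granulocyte commitment, had 329, 318 and 368 CPM in overexpressing replicates 1, 2 and 3 and 353, 367 and 431 CPM in control replicates 1, 2 and 3, so the groups overlapped (log2 fold change -0.18, 95% interval -0.40 to 0.04; edgeR quasi-likelihood test, adjusted p = 0.216, range over the alternatives 0.0245 to 0.485). With both libraries numbered 3 left out it was called lower (log2 fold change -0.15, quasi-likelihood adjusted p = 0.0245). CEBPB, an inflammatory relative that also serves monocytes, stayed within 86.2 to 86.9 CPM in overexpressing libraries, against 75.0 to 89.1 CPM in controls (0.12, 95% interval -0.07 to 0.30; adjusted p = 0.347). Without control replicate 3, the highest control, CEBPB was called higher (log2 fold change 0.20, quasi-likelihood adjusted p = 0.0227), as it was with both libraries numbered 3 left out (0.00900). It lies on chromosome 20, where the median log2 fold change of 285 expressed coding genes was 0.41 and 57.2% were called higher. Antisense genes cover 25.1% and 18.3% of the CEBPA exon bases, though both were at 0 in every library, and 11.8% of those of CEBPB, where CEBPB-AS1 was at no more than 0.692 CPM.

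CEBPE, the factor of late granule genes, was low, at 13.6, 14.8 and 19.0 CPM in overexpressing replicates 1, 2 and 3 and 12.9, 13.7 and 17.1 CPM in control replicates 1, 2 and 3. The groups overlapped (log2 fold change 0.11, 95% interval -0.27 to 0.49; edgeR quasi-likelihood test, adjusted p = 0.659). CEBPD was nearly silent, at 2.48, 0.302 and 0.725 CPM in overexpressing replicates 1, 2 and 3, against 2.05, 2.84 and 2.11 CPM in control replicates 1, 2 and 3. Overexpressing replicates 2 and 3 were below the controls and replicate 1 was among them. The difference was not called over all libraries (-0.99, 95% interval -2.51 to 0.53; adjusted p = 0.318) and was called lower without overexpressing replicate 1 (log2 fold change -2.19, quasi-likelihood adjusted p = 0.0121).

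GFI1, the repressor that favours granulocytes, had the smallest fold change of the 10. Its levels were 259, 260.4 and 250.3 CPM in overexpressing replicates 1, 2 and 3 and 261, 254 and 243 CPM in control replicates 1, 2 and 3 (log2 fold change 0.02, 95% interval -0.12 to 0.16; edgeR quasi-likelihood test, adjusted p = 0.835). This interval leaves room for a rise of up to 0.16 or a drop to -0.12. KLF4, a zinc-finger factor of monocytes, was low, at 8.69, 6.54 and 8.60 CPM in overexpressing replicates 1, 2 and 3 and 7.71, 8.83 and 8.03 CPM in control replicates 1, 2 and 3 (-0.04, 95% interval -0.41 to 0.32; adjusted p = 0.869).

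**Figure D2:**
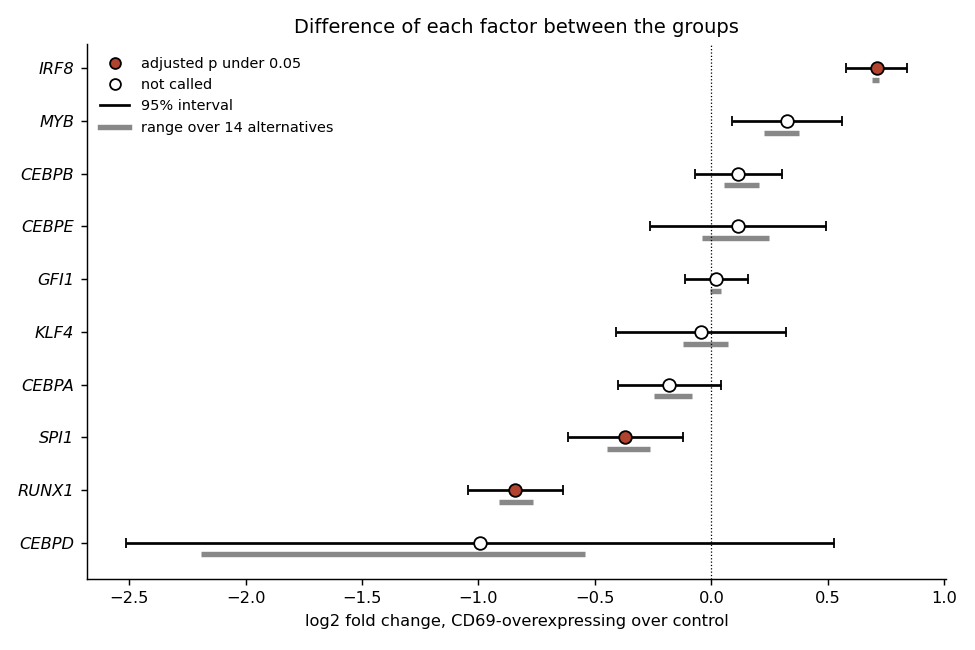
Log2 fold change of each factor, CD69-overexpressing over control, with its 95% interval (black) and the range over 14 alternative analyses (grey); filled points passed the adjusted p threshold of 0.05. IRF8 at 0.71 and RUNX1 at -0.84 are the 2 factors called under all 14 alternatives. The grey range crosses 0 only for CEBPE, GFI1 and KLF4, and CEBPD has the widest interval.

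To compare levels between genes, CPM was divided by the length of all annotated exons in kb, which understates genes such as RUNX1 whose annotation joins many transcripts. In overexpressing cells the order of these levels per kb was CEBPA (129 ± 10.0 CPM per kb, SD, n = 3), MYB (95.0 ± 5.15), GFI1 (77.8 ± 1.68), SPI1 (50.5 ± 4.80), CEBPB (44.3 ± 0.207), IRF8 (25.3 ± 0.356), CEBPE (10.2 ± 1.82), RUNX1 (6.52 ± 0.313), KLF4 (2.17 ± 0.332) and CEBPD (0.537 ± 0.531). No neighbours in that order overlapped between libraries. In control cells the order was CEBPA (146 ± 15.9 CPM per kb), GFI1 (76.7 ± 2.76), MYB (75.7 ± 9.90), SPI1 (65.3 ± 7.88), CEBPB (40.9 ± 4.03), IRF8 (15.4 ± 0.202), RUNX1 (11.7 ± 1.203), CEBPE (9.38 ± 1.41), KLF4 (2.24 ± 0.158) and CEBPD (1.07 ± 0.202). There the levels of GFI1, MYB and SPI1 overlapped in turn, as did those of RUNX1 and CEBPE.

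Ratios of opposed or partnered factors within a library, on the same scale per kb, moved with the called genes. The ratio of IRF8 to GFI1 was 0.318, 0.325 and 0.331 in overexpressing replicates 1, 2 and 3, against 0.192, 0.203 and 0.209 in control replicates 1, 2 and 3. The ratio of RUNX1 to CBFB, the gene of its partner subunit, was 0.251, 0.248 and 0.225 in overexpressing libraries, against 0.453, 0.394 and 0.412 in control libraries. The ratio of SPI1 to CEBPA was 0.388, 0.389 and 0.400 in overexpressing libraries, against 0.453, 0.435 and 0.454 in control libraries. None of these 3 ratios overlapped between the groups, and each reached p = 0.1 in a two-sided exact permutation test, the smallest p that 3 libraries against 3 allow. Each ratio sets a called factor over a gene that was not called, so this separation adds no support beyond those calls. No background of ratios was computed.

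Likeness of pattern was measured as the root mean square distance of centred log2 CPM over the 6 libraries, among 10248 coding genes. Closest to IRF8 were FBXO9 (distance 0.024; 124.5 ± 1.502 CPM in overexpressing and 75.9 ± 1.46 CPM in control cells) and FAM120C (0.028). Closest to RUNX1 were PLAGL2 (0.047; 138 ± 7.87 CPM in overexpressing and 255 ± 20.5 CPM in control cells) and EPB41L3 (0.049). Closest to SPI1 were EIF3G (0.022; 134 ± 9.25 CPM in overexpressing and 173 ± 21.9 CPM in control cells) and GAPDH (0.024).

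Relatives and partners of the 10 factors were taken from 6 lists. The background for each list is 14.2% of all tested genes called higher and 9.94% called lower. No list was tested as a set. Of 16 tested ETS and IRF factors, 4 rose and 1 fell (median log2 fold change 0.04), but 3 of the 4 rises were lost without some single libraries. Leaving out control replicate 1 or 2 or overexpressing replicate 2 left 1 higher gene, leaving out overexpressing replicate 3 left 2, and leaving out control replicate 3 gave 2 lower genes. IRF2, which competes with IRF1 at interferon elements, was called higher under all alternatives, at 28.5 ± 1.22 CPM in overexpressing and 19.8 ± 2.81 CPM in control cells (SD, n = 3 each). ETS2 fell to 67.1 ± 2.04 CPM in overexpressing cells, against 88.4 ± 6.49 CPM in control cells. The PU.1 relative SPIB and the IRF8 relative IRF4, both used by B cells, were high in 2 libraries only.

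IRF4 had 1.21, 15.0 and 18.4 CPM in overexpressing replicates 1, 2 and 3, against 1.86, 1.55 and 1.11 CPM in control replicates 1, 2 and 3. SPIB had 1.02, 5.76 and 6.54 CPM in overexpressing replicates 1, 2 and 3, against 0.964, 0.952 and 0.517 CPM in control replicates 1, 2 and 3, and part of its counts is uncertain because it shares exons with another gene. Overexpressing replicate 1 was at the control level for both. The calls (edgeR quasi-likelihood test, adjusted p = 0.0378 for IRF4 and 0.0293 for SPIB) were each lost in 9 of the 14 alternatives. The B cell genes BLNK, a signalling adaptor (3.25, 7.61 and 8.13 CPM in overexpressing replicates 1, 2 and 3, against 0.214 to 0.793 CPM in controls), and PAX5, the B cell identity factor (10.7, 19.95 and 15.6 CPM, against 3.07 to 6.29 CPM in controls), were also lowest in replicate 1 of the overexpressing group, though above the controls. Both overlap genes on the opposite strand. Of 13 tested B cell markers, 5 rose and 1 fell, and without overexpressing replicate 1 there were 10 higher. There were 8 higher with DESeq2 or counts divided by 4. With control replicate 2 or 3 or overexpressing replicate 2 or 3 left out, with limma-voom or with no filter on low counts there were 3 higher. The count of lower markers stayed at 1 under every alternative. BLNK and PAX5 do not stand for the whole list. Its 14 markers summed to 42.0 CPM in overexpressing replicate 1, below the 55.5 to 62.3 CPM of the controls. IGLL1, the largest of them, made up 26.8% of their CPM over all libraries. The part of the B cell markers in the IRF8, IRF4 and SPIB values was not tested.

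**Figure D3:**
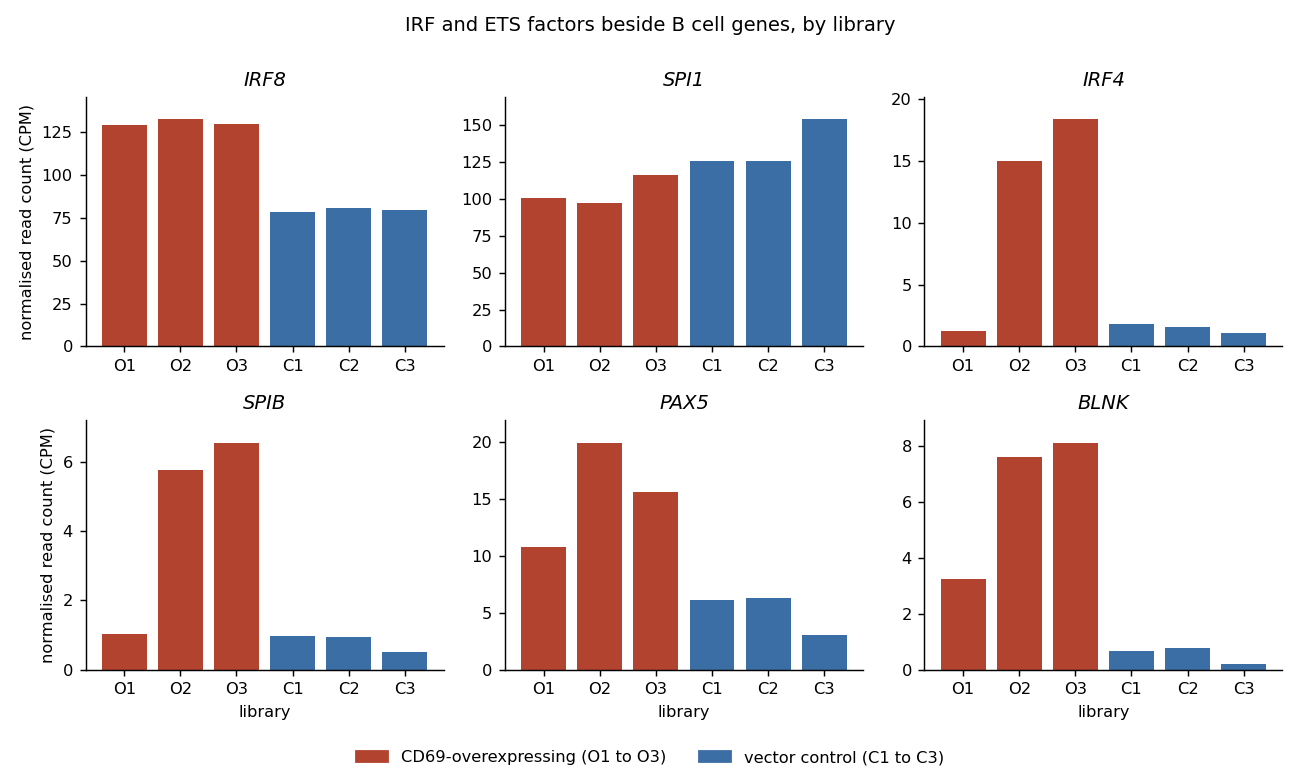
Normalised read count (CPM, bars from 0) in the CD69-overexpressing libraries O1 to O3 and the vector control libraries C1 to C3. IRF8 is level across O1 to O3 at 129 to 132 CPM, while IRF4 and SPIB are at the control level in O1 and high in O2 and O3.

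Among the RUNX and MYB partners, 2 rose and 3 fell of 12 tested (median -0.03). RUNX3, a relative of RUNX1, fell to 75.0 ± 3.54 CPM in overexpressing cells, against 103 ± 4.11 CPM in control cells (SD, n = 3 each; log2 fold change -0.46, SE 0.07; edgeR quasi-likelihood test, adjusted p = 0.00238). RUNX2 averaged 45.3 CPM in overexpressing and 44.0 CPM in control cells, and the partner CBFB 112 and 115 CPM in overexpressing and control cells, and neither was called (log2 fold changes 0.04 and -0.04). Of the ETO family corepressors that bind RUNX fusion proteins, CBFA2T3 fell by 0.49 and CBFA2T2 rose by 0.76 on the log2 scale, with RUNX1T1 too low to test and CBFA2T3 overlapping an antisense gene. TAF12, a subunit of the general factor TFIID that works with MYB, fell by 0.54. Leaving out control replicate 1 or 2, or overexpressing replicate 1 or 2, left 1 higher gene in this list.

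In a list of 11 genes, made of GFI1B and genes of the complex that GFI1 proteins recruit, 3 rose and 2 fell (median 0.08). The deacetylases HDAC2 and HDAC1 fell to 232 ± 5.26 and 195 ± 1.80 CPM in overexpressing cells, against 407 ± 9.29 and 296 ± 12.5 CPM in control cells (SD, n = 3 each; log2 fold changes -0.81 and -0.60, SE 0.06 each). The demethylase KDM1A (LSD1) and the scaffold RCOR1 were not called (log2 fold changes 0.08 and -0.05). GFI1B, the erythroid and megakaryocyte relative of GFI1, was barely detected, with 30, 44 and 22 counts in overexpressing replicates 1, 2 and 3, against 2, 0 and 0 counts in control replicates 1, 2 and 3. It was called higher, but no fold is given because 1 fragment may stand for about 4 counts, and with counts divided by 4 it was too low to test. It overlaps TSC1 on the opposite strand, and HDAC2 overlaps an antisense gene.

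The C/EBP partners had 3 higher and 2 lower of 15 (median 0.02). TRIB2, an adaptor that sends C/EBP alpha to degradation, fell to 31.3 ± 0.716 CPM in overexpressing cells, against 63.7 ± 1.96 CPM in control cells (SD, n = 3 each; log2 fold change -1.02, SE 0.07; edgeR quasi-likelihood test, adjusted p = 6.2e-05). Its relative TRIB1 was low and not called (0.21, adjusted p = 0.576), as was COP1, the ligase both recruit (adjusted p = 0.975). The AP-1 genes FOS and JUNB rose by 0.99 and 0.75, and FOSL2 fell by 0.85 on the log2 scale, with JUNB overlapping HOOK2 on the opposite strand. CEBPG, a family member without an activation domain, was not called (0.02, adjusted p = 0.875).

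Of 12 relatives of KLF4, 2 rose and 2 fell (median -0.16). KLF13 fell to 112 ± 11.7 CPM in overexpressing cells, against 155 ± 12.1 CPM in control cells (SD, n = 3 each), and KLF10 fell by 0.48 on the log2 scale. KLF6 and KLF9 rose by 0.35 and 0.42, but leaving out overexpressing replicate 1 or 2 left no higher gene and leaving out any other single library left 1. Other blood factors had 6 higher and 7 lower of 32 (median 0.08), with 3 higher without control replicate 2 or overexpressing replicate 2. EGR1, an immediate early factor that favours macrophages, rose by 2.58 (SE 0.13). Falls were called in BCL11A, a repressor of fetal globin genes (-1.23), RXRA, the partner of retinoic acid receptors (-0.90), and HHEX, a homeobox factor of progenitors (-0.69). MYC averaged 384 CPM in overexpressing and 382 CPM in control cells and was not called (log2 fold change 0.01, adjusted p = 0.950).

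**Figure D4:**
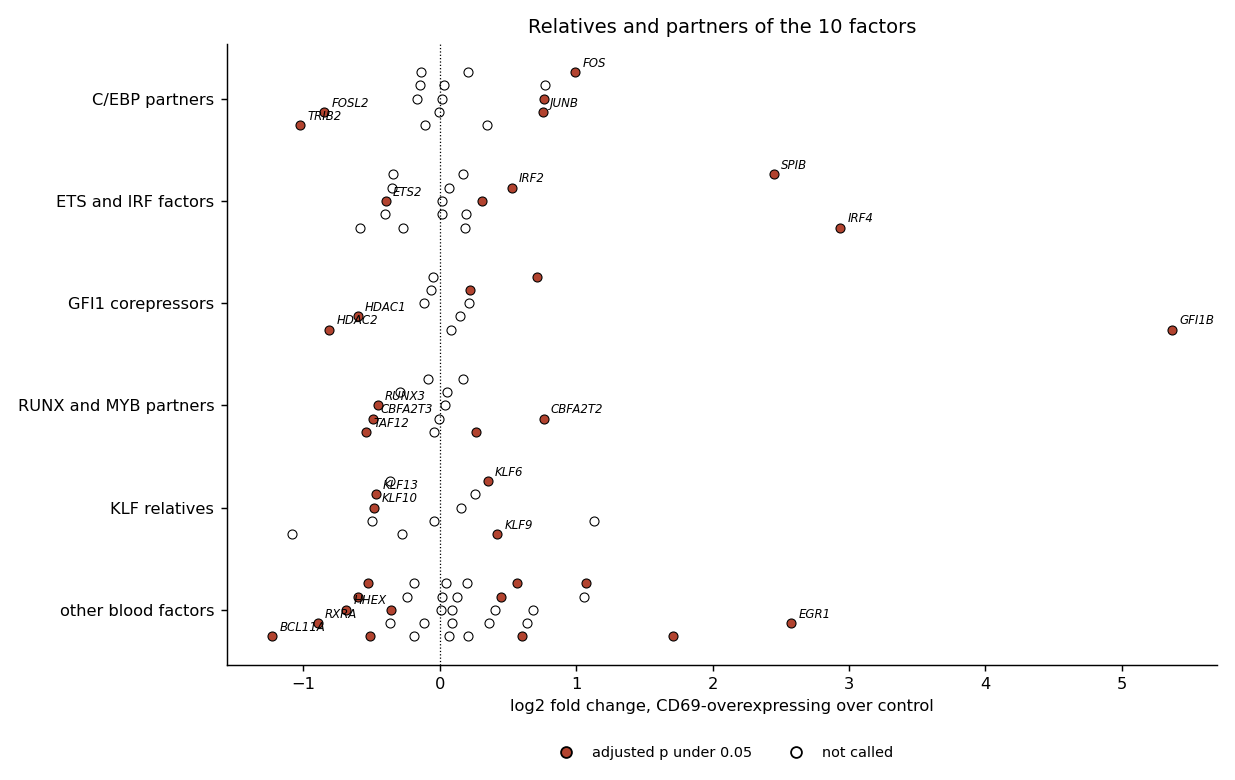
Log2 fold change, CD69-overexpressing over control, of each tested relative or partner of the 10 factors, by list; filled points passed the adjusted p threshold of 0.05 and some of them are named. Called genes lie on both sides of 0 in every list, and the place of GFI1B rests on 2 control counts.

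Genes known as targets were then described by factor, from lists that share some genes with each other (CSF1R in 3 of them and CYBB in 2). For these lists too the background is 14.2% of all tested genes called higher and 9.94% called lower, and none was tested as a set. For the primary granule proteases, which MYB, RUNX1, PU.1 and C/EBP alpha activate, PRTN3 had 596, 625 and 700.3 CPM in overexpressing replicates 1, 2 and 3, against 111, 112 and 141 CPM in control replicates 1, 2 and 3. ELANE had 387, 398 and 481 CPM in overexpressing replicates, against 104, 100.2 and 131 CPM in control replicates, and AZU1 had 329, 333 and 397 CPM in overexpressing replicates, against 173, 173 and 230.4 CPM in control replicates. None of the 3 overlapped between the groups, which was also so for 42.3% of all genes tested (23.0% higher and 19.3% lower). In the same list the cytokine receptors FLT3 and KIT fell to 3.32 ± 0.741 and 0.642 ± 0.202 CPM in overexpressing cells, against 12.004 ± 0.332 and 3.06 ± 0.547 CPM in control cells (SD, n = 3 each). Of the 14 tested MYB and RUNX1 targets, 3 rose and 3 fell (median 0.10). CTSG, another granule protease, was not called (log2 fold change 0.19, adjusted p = 0.258).

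AZU1 and PRTN3 lie near each other on chromosome 19, and their promoter windows were picked because both genes rose. The windows are from RefSeq (GRCh38.p14, both plus strand, chr19:827587-827886 for AZU1 and chr19:840749-841048 for PRTN3). Capitals mark the same letters as in the windows above.
AZU1: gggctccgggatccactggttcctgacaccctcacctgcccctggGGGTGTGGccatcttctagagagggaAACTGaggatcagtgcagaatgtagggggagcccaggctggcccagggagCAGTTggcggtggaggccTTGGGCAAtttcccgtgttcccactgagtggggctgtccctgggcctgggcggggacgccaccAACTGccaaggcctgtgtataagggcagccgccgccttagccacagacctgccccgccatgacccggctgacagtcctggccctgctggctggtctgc
PRTN3: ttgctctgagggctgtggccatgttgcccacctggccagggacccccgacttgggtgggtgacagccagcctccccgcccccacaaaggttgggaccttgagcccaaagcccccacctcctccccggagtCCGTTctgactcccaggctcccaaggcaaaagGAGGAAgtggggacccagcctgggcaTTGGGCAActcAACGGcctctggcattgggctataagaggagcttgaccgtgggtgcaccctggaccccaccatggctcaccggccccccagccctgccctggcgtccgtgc
Each window held 1 C/EBP match, on the minus strand, starting 111 bases before the AZU1 start and 62 bases before the PRTN3 start, against 10.5% of all windows with any. The PRTN3 window held 1 PU.1 match and 2 MYB matches, and the AZU1 window 3 MYB matches and 1 KLF match (18.3% of all windows). No RUNX match was found in either. Whether any of these matches has a part in the rise of the 2 genes was not tested.

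Of 15 tested C/EBP targets, 1 rose and 5 fell (median -0.43), against 14.2% higher and 9.94% lower over all genes tested. CHI3L1, a lectin of specific granules, rose to 121 ± 4.87 CPM in overexpressing cells, against 62.4 ± 4.15 CPM in control cells (SD, n = 3 each). The falls were in IL6R, the receptor subunit of interleukin 6, in CAMP, an antimicrobial peptide at 2.11 CPM in overexpressing and 4.45 CPM in control cells, and in 3 more granulocyte genes at low levels, CEACAM8 (0.236 ± 0.0734 CPM in overexpressing and 1.05 ± 0.436 CPM in control cells), LCN2 (2.16 ± 0.685 and 5.49 ± 1.89 CPM in overexpressing and control cells) and BPI, which shares exons with another gene (6.85 ± 0.862 and 10.9 ± 1.04 CPM in overexpressing and control cells). The lower genes numbered 1 without control replicate 1 or overexpressing replicate 2, 2 without control replicate 2 and 3 without overexpressing replicate 3, and 2 were higher without control replicate 1.

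Of 24 PU.1 targets, 7 rose and 6 fell (median 0.12), with SPI1 itself called lower. BTK, a kinase of myeloid and B cells, rose to 185 ± 3.75 CPM in overexpressing cells, against 112 ± 7.33 CPM in control cells (SD, n = 3 each). ITGB2, the shared beta chain of leukocyte integrins, fell by 0.49 on the log2 scale, with ITGB2 overlapping an antisense gene. CSF1R, the macrophage growth factor receptor and a classical PU.1 target, was at 1.66 to 1.95 CPM in overexpressing and 1.29 to 1.89 CPM in control libraries and was not called.

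Of 13 IRF8 and KLF4 targets, 2 rose and 2 fell (median -0.24). CIITA, the regulator of MHC class II genes, had 18.1, 25.8 and 22.3 CPM in overexpressing replicates 1, 2 and 3, against 4.23, 5.54 and 5.05 CPM in control replicates 1, 2 and 3, and shares exons with another gene. The fractalkine receptor CX3CR1 rose and the monocyte receptor CCR2 fell, both at low levels (3.40 ± 0.523 and 0.617 ± 0.148 CPM in overexpressing cells, against 1.53 ± 0.189 and 2.34 ± 0.131 CPM in control cells; SD, n = 3 each). The protease CTSC fell by 0.20, a call lost without control replicate 1 or 2 or any single overexpressing replicate, and the lower genes numbered 1 without control replicate 1 or 2 or overexpressing replicate 2 or 3. The monocyte genes CD14 (-0.79, adjusted p = 0.241), TLR4 (-0.13, adjusted p = 0.517) and CST3 (-0.12, adjusted p = 0.561) were not called.

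Of 17 genes that GFI1 is known to repress, 1 rose and 3 fell (median -0.09). The rise was EGR1, which had 71.8, 75.0 and 67.1 CPM in overexpressing replicates 1, 2 and 3, against 14.2, 11.6 and 10.1 CPM in control replicates 1, 2 and 3. ID1, JAK3 and CDKN1B fell by 0.60, 0.25 and 0.23 on the log2 scale. Leaving out control replicate 2 or overexpressing replicate 2, or using no filter on low counts with all 6 libraries, left no lower gene, leaving out control replicate 1 or overexpressing replicate 3 left 1, and without overexpressing replicate 1 there were 2 higher. HOXA9 and MEIS1, which GFI1 holds down in progenitors, were not called (log2 fold change 0.09 for each, with HOXA9 sharing exons with other genes).

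**Figure D5:**
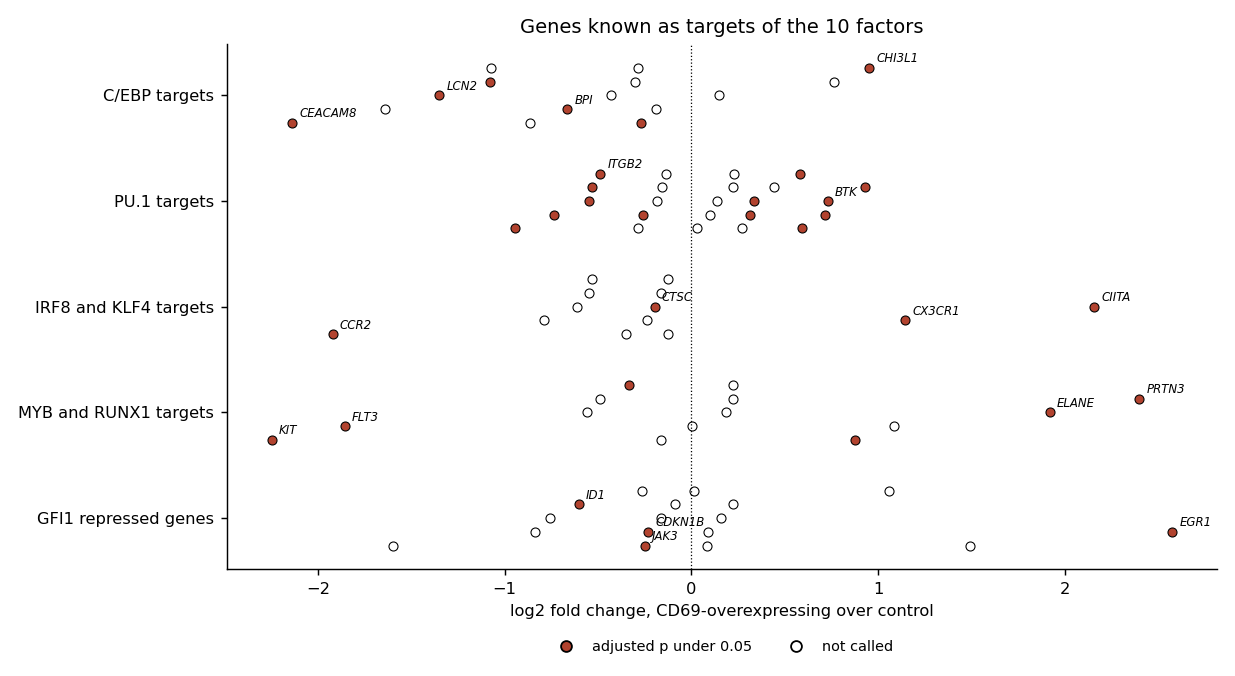
Log2 fold change, CD69-overexpressing over control, of tested genes known as targets of the 10 factors, by list; filled points passed the adjusted p threshold of 0.05 and some of them are named. Called genes lie on both sides of 0 in every list, with PRTN3, ELANE, CIITA and EGR1 farthest to the right and KIT, CEACAM8, CCR2 and FLT3 farthest to the left.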

How the data were processed

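The authors deposited 1 table of estimated counts, with genes as rows and the 6 libraries as columns. FastQC, fastp, STAR, featureCounts (Subread) and the build GRCh38 (hg38) are listed in the submitters' processing notes. Tool versions, the annotation, the strand setting and what 1 count stands for are not given in the sources used here. Library preparation was strand-specific per the labels' protocols, but since the strand setting of the counting is not known, counts of genes with an antisense partner are uncertain. Values were whole numbers with an excess of genes at 4 and 8 counts, so 1 fragment may stand for about 4 counts and an alternative divided counts by 4. Of 61806 genes, 61757 had an entry in the gene name table. Positions, lengths and overlaps came from GENCODE 29.

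Genes were kept with filterByExpr (19485), scaled by TMM and tested two-sided with glmQLFit and glmQLFTest (edgeR 4.0.16, R 4.3.3) over all 6 libraries, without a block, with Benjamini-Hochberg adjustment at 0.05. SE and intervals come from that fit. Levels are CPM with TMM factors. The members and lists were chosen with earlier results of these data known. The text names all 10 factors and, from each list, up to 4 called genes with the smallest p, besides uncalled relatives of the factors; some genes that the rule names are not reported here. IL6R, CAMP, AZU1, CTSG, CSF1R, CD14, TLR4, CST3, HOXA9, MEIS1, MYC and MPO were named after their values were seen. On simulated counts for 18855 genes the test called 10% of genes with a log2 change of 0.5, 53.1% at 1, 72.9% at 2, 85.7% at 3 and 8 of 18659 unchanged genes. Only 48 to 50 genes were changed at each step, whereas 24.1% of genes were called in the real counts. The adjusted threshold is stricter where few genes change, so these rates do not give the power of the real test. Replicates differed by more than sampling noise (chi-square over its degrees of freedom of 2.36 to 14.1, from counts divided by 4). Alternatives used RLE or upper-quartile factors, no filter, DESeq2 1.42.0, limma-voom (limma 3.58.1), counts divided by 4, a block for the replicate number, and the omission of each library in turn. Leaving out both libraries numbered 3 was chosen after seeing the data. Figures used matplotlib 3.10.9.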

Additional observations from a re-analysis of the deposited data

How the results depend on the processing

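IRF8 stayed called higher and RUNX1 lower under all 14 alternatives, with log2 fold changes of 0.69 to 0.72 and -0.91 to -0.77. The count of higher factors was 2 with DESeq2, limma-voom, counts divided by 4 or the replicate block, 3 with both libraries numbered 3 left out, and 1 to 3 with single libraries left out. The count of lower factors was 1 with no filter on low counts and 1 to 2 with single libraries left out, where CEBPD took the place of SPI1 without overexpressing replicate 1. Over all genes, single libraries left out gave 1783 to 2917 higher and 1137 to 2226 lower genes, and both libraries numbered 3 left out gave 2957 lower genes. In that last setting MYB, CEBPB and CEBPA passed the threshold (log2 fold changes 0.27, 0.20 and -0.15, edgeR quasi-likelihood adjusted p = 0.000830, 0.00900 and 0.0245). The cause of these moves was not tested.

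Signs turned only among uncalled factors when 1 library was left out: log2 fold changes ranged from -0.038 (without overexpressing replicate 3) to 0.246 for CEBPE, from -0.0039 (without control replicate 3) to 0.042 for GFI1 and from -0.121 to 0.072 (without overexpressing replicate 2) for KLF4. Same-numbered libraries were not taken as pairs, since their deviations from the group means correlated at 0.0932, 0.147 and 0.369 for numbers 1, 2 and 3. Libraries 1 and 2 each correlated best with the other number, whereas the libraries numbered 3 correlated best with each other. With the replicate number as a block, 3194 genes were higher and 2669 lower, and CEBPA (adjusted p = 0.0299) and MYB (0.00745) were called. Of 84 called genes in the other lists, 55 stayed called under every alternative and none changed sign. With no filter on low counts, the ETS and IRF factors had 1 higher gene, the KLF relatives 1 higher, the C/EBP targets 2 lower, the IRF8 and KLF4 targets 1 lower and the GFI1 repressed genes 0 lower. With DESeq2 the C/EBP partners had 5 higher, the ETS and IRF factors 4 lower and the IRF8 and KLF4 targets 4 lower. With both libraries numbered 3 left out, the GFI1 corepressors and the MYB and RUNX1 targets had 5 higher each and the promyelocyte markers 8 higher. CEBPD, CEBPE and KLF4 have the widest intervals of the 10 factors, and CEBPD had the fewest counts, 17 to 161 per library.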
